A study of Mus musculus with 8 samples.

Results

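The genes described here encode the Id proteins, the E proteins and the ZEB repressors, which in dendritic cell biology are known as a switch between conventional and plasmacytoid fates. The 8 genes, Id1, Id2, Id3, Tcf3, Tcf4, Tcf12, Zeb1 and Zeb2, were chosen by name and set against the 21627 protein-coding genes on autosomes and the X chromosome. Peaks of open chromatin were taken where they lay inside one of the 8 genes or within 50 kb of its ends, which gave 71 of 50950 peaks in replicate 1 and 85 of 58319 in replicate 2. A shared region is a stretch where peaks of both replicates overlapped by at least 1 bp, and 60 of 44365 shared regions fell at these genes.

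Both samples are ATAC-seq libraries of mouse dendritic cells labelled CD8-positive that had received no stimulus. In ATAC-seq a transposase inserts sequencing adapters where DNA is accessible. The labels give the spleen as the source and also call the cells a line, and they name no strain, age, sex or genotype. The other 6 samples of the series are chromatin immunoprecipitations of IRF3 after poly(I:C), IRF5 after CpG oligonucleotide and IRF9 after interferon-beta at 90 min, 2 per factor, and were not analysed here. Nothing in the labels says whether the 2 ATAC-seq samples came from separate cultures, so their spread may be technical. There is 1 group and no contrast, and no test between conditions was possible.

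E proteins are basic helix-loop-helix factors that bind the E-box, a short DNA motif, as dimers. Id proteins carry the helix-loop-helix without the basic DNA-binding part, so that an E protein paired with an Id protein cannot bind DNA. Plasmacytoid dendritic cells depend on the E protein encoded by Tcf4, the CD8-positive conventional cells called cDC1 depend on Id2, and Zeb2 is known to hold Id2 down in cells that do not become cDC1.

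The promoters are shown first because the open regions at the Id and E protein starts are read against them below. RefSeq promoter sequences of GRCm38.p6, the assembly of mm10, were matched by symbol for 5 of the 8 genes, with 10 start sites in all. Each runs from 250 bases before to 50 after the start, in the direction of transcription, and lies on the strand given. Capitals mark every E-box of the form CANNTG and, in the downstream Tcf12 start, a match to an interferon-response type motif (GAAA, 2 letters of any kind, GAAA). The Id2 promoter (chr12:25096043-25096342, minus strand) and the Id3 promoter (chr4:136143572-136143871, plus strand) lay almost wholly in a shared region, with 290 and 293 of 300 bases. The Tcf3 promoter (chr10:80433586-80433885, minus strand) had 186 of its 300 bases in a shared region. The outer Tcf12 promoter (chr9:72111770-72112069, minus strand) had 253 bases in one and the downstream Tcf12 promoter (chr9:71896047-71896346, minus strand) had 91. The outermost Zeb2 promoter (chr2:45117393-45117692, minus strand) had 0.
Id2: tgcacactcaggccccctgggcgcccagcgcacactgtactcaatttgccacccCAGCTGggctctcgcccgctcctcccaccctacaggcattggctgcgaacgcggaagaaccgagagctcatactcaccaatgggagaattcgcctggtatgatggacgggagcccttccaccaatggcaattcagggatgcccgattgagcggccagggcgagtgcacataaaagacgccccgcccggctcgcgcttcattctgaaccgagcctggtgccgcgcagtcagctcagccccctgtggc
Id3: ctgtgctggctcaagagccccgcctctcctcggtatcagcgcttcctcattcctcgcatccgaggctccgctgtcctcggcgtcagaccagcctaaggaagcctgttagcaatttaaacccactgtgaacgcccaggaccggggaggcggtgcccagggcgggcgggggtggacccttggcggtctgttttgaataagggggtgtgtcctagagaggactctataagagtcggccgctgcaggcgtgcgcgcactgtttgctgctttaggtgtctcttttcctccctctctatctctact
Tcf3: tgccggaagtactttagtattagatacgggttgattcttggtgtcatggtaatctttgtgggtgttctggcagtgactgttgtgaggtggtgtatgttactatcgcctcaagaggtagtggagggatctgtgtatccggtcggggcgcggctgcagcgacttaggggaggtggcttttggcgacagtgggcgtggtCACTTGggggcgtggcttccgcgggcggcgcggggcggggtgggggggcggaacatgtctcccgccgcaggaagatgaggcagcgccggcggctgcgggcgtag
Tcf12, outer start: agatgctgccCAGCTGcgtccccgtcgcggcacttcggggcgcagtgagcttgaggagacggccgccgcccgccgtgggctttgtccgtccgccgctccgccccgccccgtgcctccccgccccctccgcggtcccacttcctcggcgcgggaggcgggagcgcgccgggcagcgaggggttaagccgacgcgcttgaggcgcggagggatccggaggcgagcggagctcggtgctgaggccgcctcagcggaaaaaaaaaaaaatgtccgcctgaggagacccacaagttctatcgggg
Tcf12, downstream start: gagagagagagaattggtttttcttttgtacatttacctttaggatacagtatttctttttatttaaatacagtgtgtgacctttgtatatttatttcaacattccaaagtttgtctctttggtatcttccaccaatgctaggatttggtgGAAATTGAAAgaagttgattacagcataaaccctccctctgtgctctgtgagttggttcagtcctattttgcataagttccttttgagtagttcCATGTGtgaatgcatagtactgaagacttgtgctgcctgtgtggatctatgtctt
Zeb2, outermost start: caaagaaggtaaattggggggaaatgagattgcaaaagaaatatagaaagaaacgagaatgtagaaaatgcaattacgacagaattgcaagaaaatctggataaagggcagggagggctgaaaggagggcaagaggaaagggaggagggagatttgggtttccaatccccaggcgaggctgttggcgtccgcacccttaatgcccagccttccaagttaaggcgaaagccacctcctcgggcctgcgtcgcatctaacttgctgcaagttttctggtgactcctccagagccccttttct

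E-boxes of the form CANNTG, searched on both strands, stood in 5 of the 10 promoters of these genes and in 72.3% of the 32851 promoters of that length in the table. CAGCTG, one of those E-boxes, was in 2 of the 10 and in 16.3% of all. It lay at base -196 from the Id2 start, inside the shared region, and at base -240 from the outer Tcf12 start, outside it. CAGGTG and its reverse CACCTG, the form that ZEB proteins are known to bind, were in 0 of the 10 and in 20.2% of all. CATATG and CACGTG were likewise in 0 of the 10, against 3.91% and 7.15% of all promoters. The Tcf3 promoter held CACTTG at base -54 from its start, within a shared region. The middle Tcf12 promoter, not printed above, held CAAGTG at base -149 and CACTTG at base 18, both outside any shared region. The downstream Tcf12 promoter held CATGTG at base -5, within a shared region, and GAAATTGAAA, the interferon-response type match, at base -99, outside the region. That motif was found in 1 of the 10 promoters and in 3.44% of all. The 10 promoters had a median GC content of 60.3% and a median observed over expected CpG of 0.697, against 52.7% and 0.384 over all promoters. A letter match is a description of the window and says nothing of binding, and starts of the same gene share sequence.

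The libraries differed in depth: the genome-wide background, in reads per position, was 0.676 and 1.28 in replicates 1 and 2, and the weakest listed summits held 7 and 9 reads. A site without a peak was therefore one not called at this depth and local background, and it need not have been closed. Fold enrichment, the height used here, is the authors' ratio of reads at a summit to the local background, each with 1 added, and read numbers were worked back from it. Over all genes, 10345 of 21627 (47.8%) had a shared region within 1 kb of either end. Among markers, 10 of 16 cDC1 genes had such a region (62.5%), with Batf3, Clec9a and Cd8a among those without. The same count was 6 of 16 for plasmacytoid genes (37.5%) and 4 of 12 for genes of the other conventional subset, cDC2. It was 2 of 10 for B cell, 3 of 11 for T cell, 1 of 9 for NK cell and 9 of 11 for macrophage and monocyte genes, with Adgre1, which encodes F4/80, among those without. The part of other cells in the values below was not tested. The shared region nearest to an end of Cd8a, which names the cells, lay 4371 bp away.

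All 8 loci carried at least 1 shared region in the gene or its flanks, as did 79.5% of coding genes. Each also had at least 1 that overlapped the gene, as did 57.5%. At Id1, Id2 and Id3 the only such region lay over an end of the gene, with its centre outside the gene. The median was 8.5 shared regions per locus (range 1 to 12), against 5 (interquartile range 1 to 8) over coding genes. Loci differ in length, and per 100 kb of gene and flanks the 8 genes had a median of 4.33 regions, against 3.35 over coding genes. The order of density was Id2 with 8.80, Id3 with 7.88, Tcf3 with 7.23, Id1 with 5.93, Tcf12 with 2.72, Tcf4 with 2.70, Zeb1 with 1.76 and Zeb2 with 0.427 shared regions per 100 kb. Of coding genes, 89.0% were less dense than Id2 and 21.6% less dense than Zeb2. The order among the 4 compact loci depended on the peaks used: replicate 2 alone had 14 peaks at Id3, 12 at Tcf3, 11 at Id1 and 9 at Id2, and the better-scoring 50% of peaks gave 7 shared regions at Tcf3, 3 at Id2, 3 at Id3 and 1 at Id1. With flanks of 100 kb, Id1, Id2 and Tcf3 had 16 each and Id3 had 15. Of the 8 genes, 6 had a shared region no more than 1 kb from an end, namely Id1, Id2, Id3, Tcf3, Tcf4 and Tcf12, against 47.8% of coding genes. Zeb1 and Zeb2 had none there. Of the 60 shared regions 44 had an end of the gene itself as the nearest coding gene end, but that held for 2 of 6 at Id1 and 2 of 9 at Tcf3, whose neighbours are close. Around the starts that the promoter table gives, 5 of 5 genes had one within 1 kb, against 49.3% of 17273 coding genes in that table, and Zeb2 counts there through a downstream start.

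**Figure D1:**
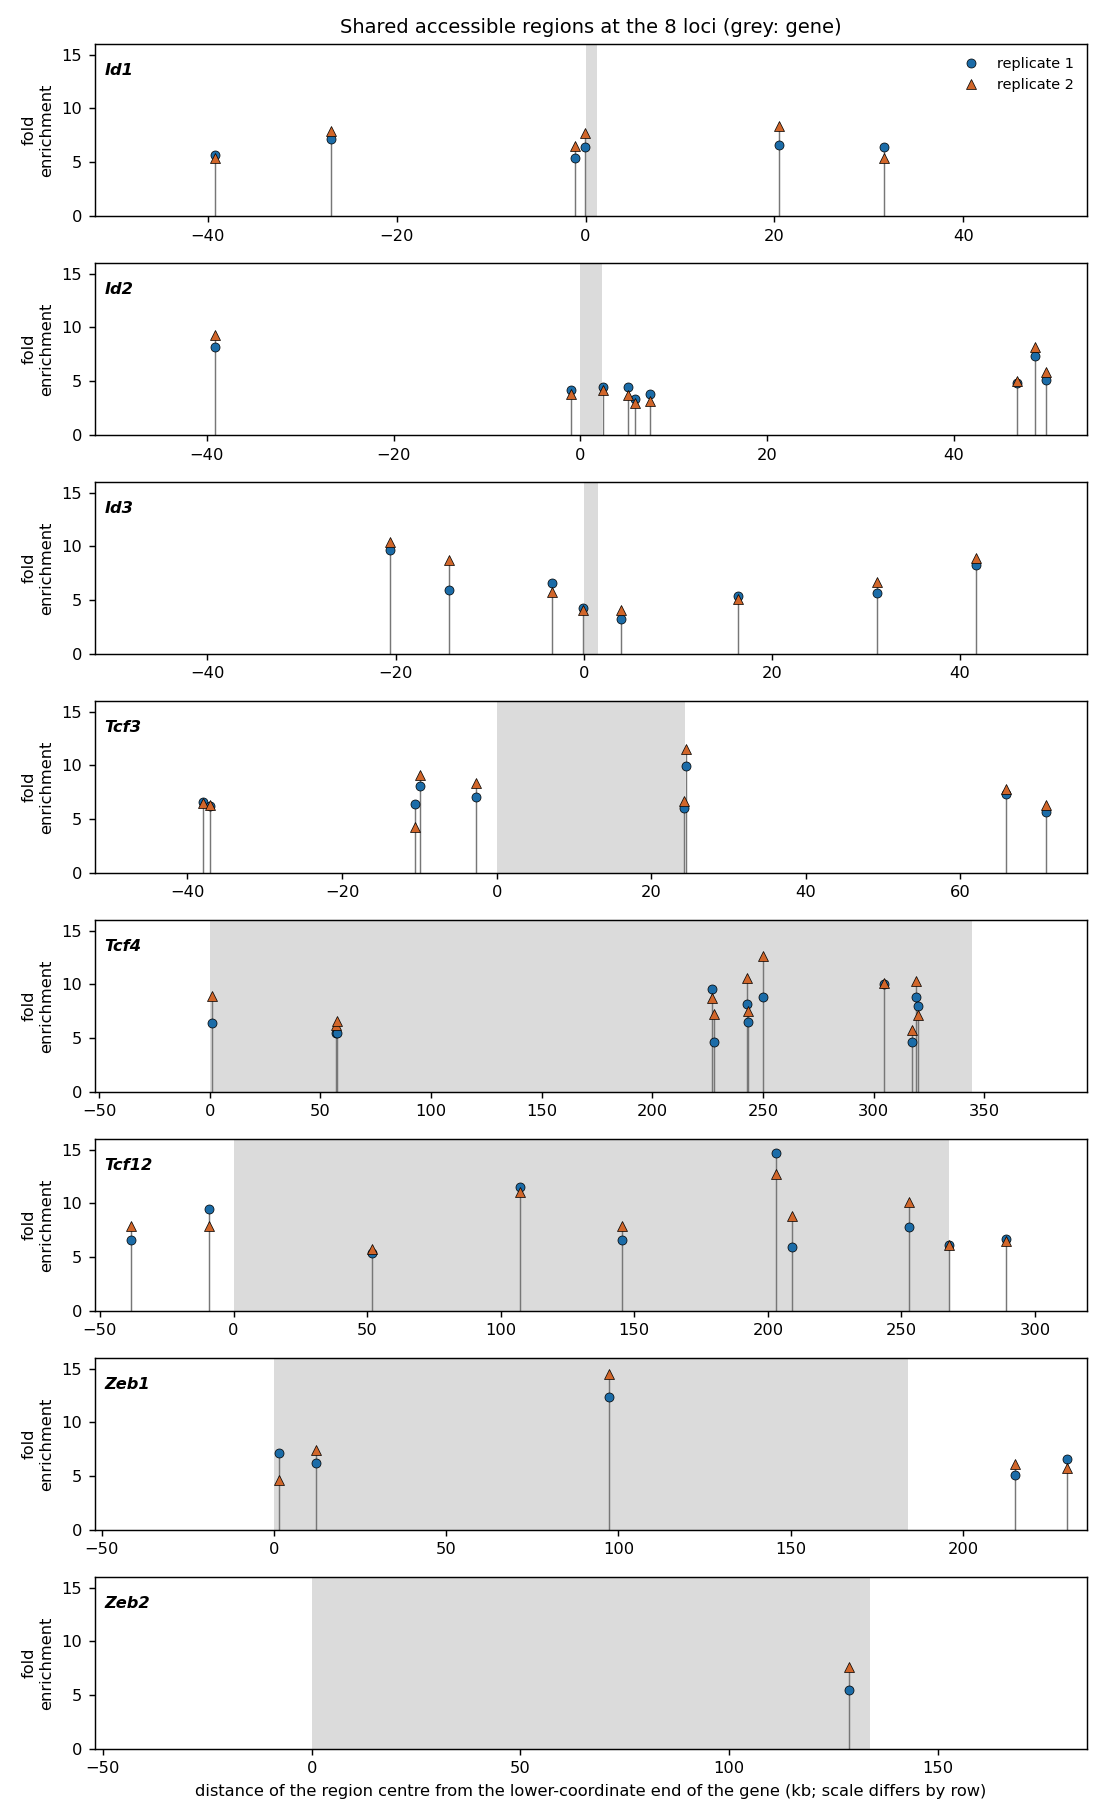
Fold enrichment (vertical axis) of every shared region in replicate 1 (circles) and replicate 2 (triangles) against the distance of its centre from the lower-coordinate end of the gene (horizontal axis, kb), 1 row per gene with the gene in grey. Regions flank the short Id genes, lie in the body of Tcf4 and, for 7 of 10, of Tcf12, and come down to 1 at Zeb2.

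**Figure D2:**
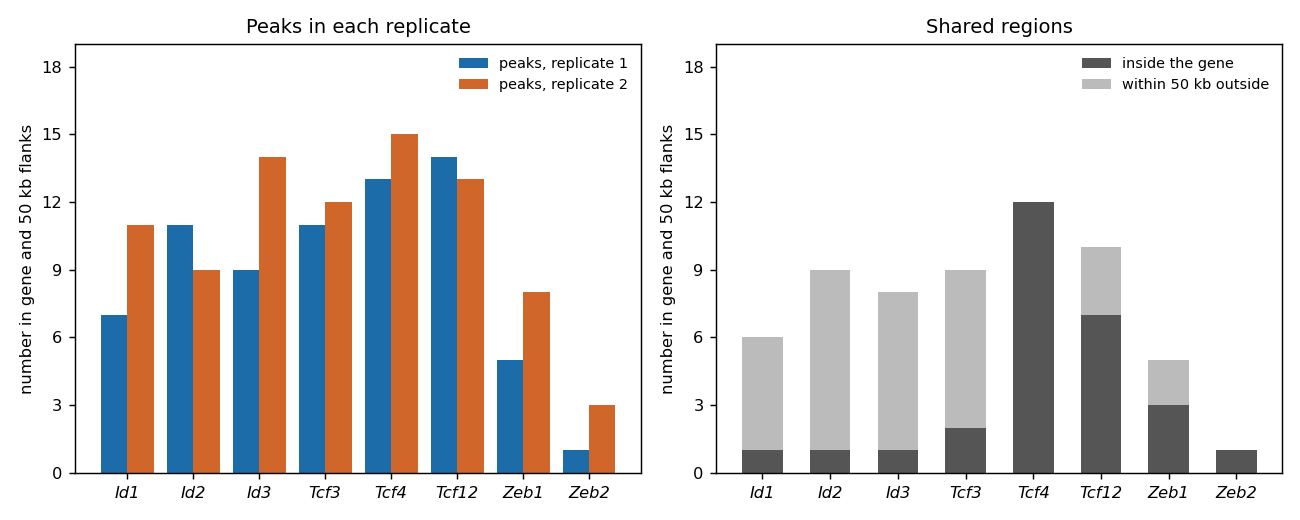
Left, the number of peaks in each gene and its 50 kb flanks in replicate 1 and replicate 2. Right, the number of shared regions, split into those that overlap the gene (dark) and those outside (light). Tcf4 has 12 shared regions, all inside the gene, and Zeb2 has 1.

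The shared percentage of peaks at these genes lay below that of all peaks in each replicate, within its counting interval. In replicate 1, 62 of 71 peaks were shared (87.3%, exact 95% binomial interval 77.3 to 94.0), against 90.0% of all peaks. In replicate 2, 61 of 85 were shared (71.8%, 61.0 to 81.0), against 76.5% of all peaks. The intervals cover counting error only. The 60 shared regions had median fold enrichments of 6.42 and 7.21 in replicates 1 and 2, against 7.22 and 7.59 over all shared regions. Their median reads were 17 and 23, against 17 and 25, and their median width was 189 bp, against 198 bp. Just 4 of the 60 (6.67%) had a mean score percentile over 90, against 10.4% of all shared regions, where the percentile is the rank of a peak's −log10 q within its own list.

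Id2, which sequesters E proteins in cDC1 and innate lymphoid cells, had open chromatin packed around a gene of 2294 bp (chr12:25093799-25096092). It had 11 peaks in replicate 1 and 9 in replicate 2, and every one of them had a partner in the other replicate. They formed 9 shared regions, 5 of them within a span of 8.95 kb around the gene. The region over the promoter (chr12:25096022-25096332) held 47 reads in replicate 1 (exact 95% Poisson interval 34.5 to 62.5) and 65 in replicate 2 (50.2 to 82.8). Its fold enrichment was 4.48 and 4.21. These values stand at opposite ends of their scales: the reads lay at percentile 99.6 and 99.5 of all shared regions, and the fold enrichment at percentile 4.30 and 3.23. The local background there was 9.71 and 14.7 reads per position, 14.4 and 11.5 times the genome-wide value.

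The other Id2 regions near the gene showed the same pairing of many reads with low enrichment. A region of 892 bp lay 568 bp beyond the lower end of the gene, which is its downstream end (chr12:25092340-25093231), and had 4 summits in replicate 1 and 5 in replicate 2. It held 31 and 42 reads with a fold enrichment of 4.22 and 3.83. Upstream of the promoter, 3 regions at 2.71, 3.42 and 5.06 kb held 37, 27 and 24 reads in replicate 1 and 46, 35 and 30 in replicate 2. Their fold enrichments ran from 3.38 to 4.41 in replicate 1 and from 2.93 to 3.74 in replicate 2. The regions far from the gene were steeper. One at chr12:25142395-25142551, 46.3 kb upstream in the long non-coding RNA gene Gm36287, had a fold enrichment of 7.35 and 8.14 with 22 and 34 reads. One at chr12:25054585-25054853, inside Kidins220, had 8.14 and 9.32 with 15 and 23 reads.

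Id3, the family member most studied in lymphocytes, lies at chr4:136143822-136145392 and had 9 peaks in replicate 1 and 14 in replicate 2, forming 8 shared regions. The region over its start (chr4:136143579-136143883) held 30 reads in replicate 1 (20.2 to 42.8) and 37 in replicate 2 (26.1 to 51.0). Its fold enrichment was 4.22 and 4.09 on a local background of 6.34 and 8.30 reads per position, so it resembled the Id2 promoter in shape with fewer reads. The best scoring Id3 region lay 20.4 kb upstream of the start (chr4:136123178-136123373) with a fold enrichment of 9.66 and 10.4 and 22 and 28 reads. The next were one inside E2f2 (chr4:136185449-136185723), with 8.24 and 8.88, and one inside the long non-coding RNA gene Gm42329 (chr4:136140377-136140603), with 6.57 and 5.80.

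Id1, a BMP-responsive member of the family, lies at chr2:152736251-152737410 and had 7 peaks in replicate 1 and 11 in replicate 2, forming 6 shared regions. The region over its lower end (chr2:152736103-152736340) held 28 reads in replicate 1 (18.6 to 40.5) and 47 in replicate 2 (34.5 to 62.5), with a fold enrichment of 6.41 and 7.73. A second region 936 bp outside that end (chr2:152735009-152735315) held 23 and 39 reads with 5.36 and 6.49. Another region, chr2:152709194-152709337, lay 526 bp from an end of the neighbouring H13 and had 7.16 and 7.90 with 11 and 17 reads. Id1 thus had a steeper end region than Id2 and Id3 in both replicates, on fewer reads than Id2 in both, with counting intervals of the reads that overlap.

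**Figure D3:**
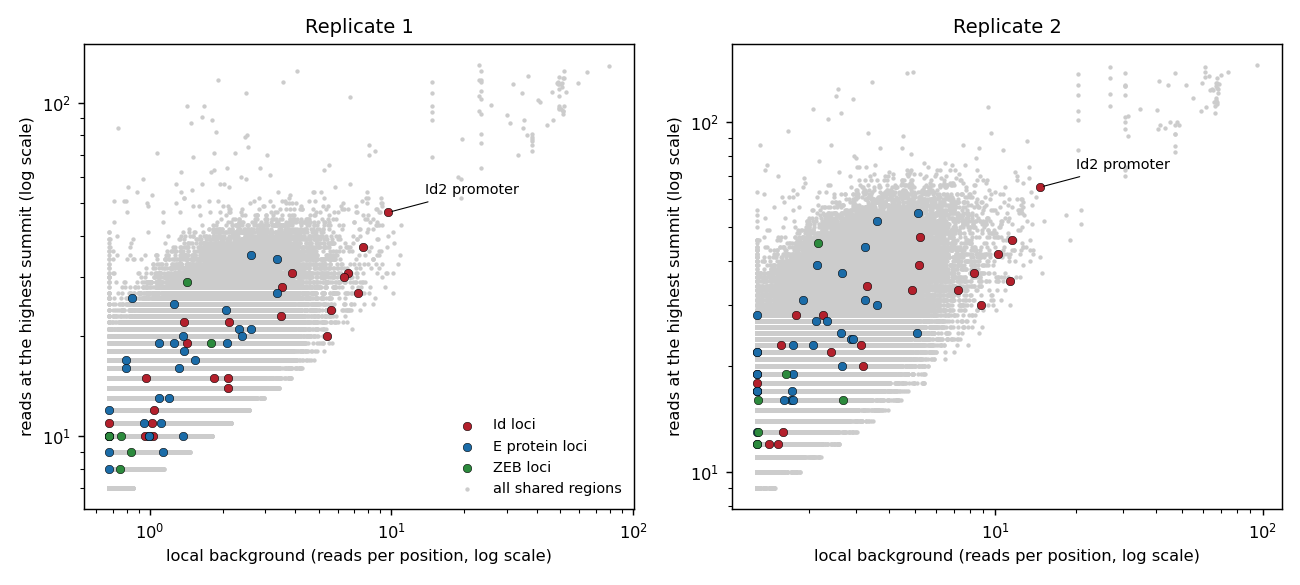
Reads at the highest summit (vertical, log scale) against the local background in reads per position (horizontal, log scale) for shared regions in replicate 1 (left) and replicate 2 (right), with all shared regions in grey. Regions of the Id loci reach the highest local background among the 8 loci, with the Id2 promoter at 9.71 and 14.7, and the 6 ZEB regions hold 8 to 29 reads in replicate 1 and 12 to 45 in replicate 2.

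Over the 3 Id loci together, 23 shared regions had a median fold enrichment of 5.63 and 5.80 in replicates 1 and 2 on a median local background of 2.11 and 3.19 reads per position. The 31 regions of the E protein loci had 6.59 and 7.90 on a background of 1.20 and 1.89. The 6 regions of the ZEB loci had 6.40 and 6.77 on 0.799 and 1.47. Median reads ran in the order Id (20 and 28), E protein (17 and 23) and ZEB (10 and 16) in both replicates. The ranges of the 3 sets overlapped, and the order did not hold gene by gene. Median reads were 11.5 and 17.5 at Id1, 24 and 34 at Id2 and 19.5 and 28 at Id3. They were 21 and 25 at Tcf3, 17.5 and 24 at Tcf4 and 11.5 and 17 at Tcf12. Median local background was 0.996 and 1.51 at Id1, 5.62 and 8.86 at Id2 and 1.64 and 2.34 at Id3. Of the 6 ZEB regions, 5 were at Zeb1 and 1 at Zeb2. Of the Id regions, 3 of 23 (13.0%) touched the gene itself, against 21 of 31 (67.7%) for E protein genes and 4 of 6 (66.7%) for ZEB genes, which are far longer.

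Tcf3, the E protein gene required for B cell commitment, lies at chr10:80409541-80433976 in a gene-dense stretch. It had 11 peaks in replicate 1 and 12 in replicate 2, forming 9 shared regions. The region over its upper end (chr10:80433914-80434256) held 35 reads in replicate 1 (24.4 to 48.7) and 52 in replicate 2 (38.8 to 68.2). With a fold enrichment of 9.91 and 11.5 and a mean score percentile of 96.3 it was the best scoring end region of the 8 genes. A second region (chr10:80433655-80433840) began 20 bp upstream of the given start and had 6.07 and 6.72 with 21 and 30 reads. Other regions of the locus lay at ends of neighbouring genes: one over an end of Mbd3 (chr10:80399438-80399899) had 8.04 and 9.13, and one over an end of Uqcr11 (chr10:80406787-80406957) had 7.10 and 8.41.

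Tcf4, the gene whose E protein drives plasmacytoid identity, spans 344539 bp (chr18:69343429-69687967). It had 13 peaks in replicate 1 and 15 in replicate 2, forming 12 shared regions, all of them inside the gene and 0 in either flank. The region nearest an end lay 849 bp inside the lower end (chr18:69344278-69344548) and held 13 reads in replicate 1 (6.92 to 22.2) and 27 in replicate 2 (17.8 to 39.3), with a fold enrichment of 6.37 and 8.94. The higher values were deep in the gene. The region at chr18:69586083-69586311 had 8.15 and 10.6 with 24 and 44 reads, that at chr18:69593257-69593476 had 8.86 and 12.7 with 19 and 39 reads, and that at chr18:69662242-69662410 had 8.85 and 10.4 with 20 and 37 reads. The regions formed separate groups: 3 lay within 57.4 kb of the lower end, 9 lay in the last 118 kb, and 170 kb between them held no shared region. That gap did hold 1 peak of replicate 1 without a partner, at chr18:69547070-69547137, with 9 reads and a fold enrichment of 5.97. Coding genes of 100 kb or more, 2426 in all, had a median of 2 shared regions inside (interquartile range 0 to 5). These counts were not scaled for length. Per 100 kb of gene and flanks Tcf4 had 2.70 shared regions, and 43.7% of coding genes were less dense. Between 50 and 250 kb from Tcf4, a window chosen after seeing the data, there were 0 shared regions, as for 11% of coding genes and 12.6% of those of 100 kb or more. The annotation used gives no strand or start for Tcf4, so none of these regions is assigned to a promoter.

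Tcf12, which encodes the E protein called HEB, spans 267642 bp (chr9:71844252-72111893). It had 14 peaks in replicate 1 and 13 in replicate 2, forming 10 shared regions, 7 inside the gene. The region over its outer start (chr9:72111758-72112022) was weak, with 11 reads in replicate 1 (5.49 to 19.7) and 13 in replicate 2 (6.92 to 22.2) and a fold enrichment of 6.17 and 6.15. Its score percentile was 24.1 in both replicates. By contrast the region at chr9:72047172-72047364 inside the gene had 14.6 and 12.7 with 26 and 28 reads, and that at chr9:71951377-71951751 had 11.5 and 11.1 with 25 and 31 reads. The next, 9.25 kb beyond the lower end (chr9:71834836-71835002), had 9.47 and 7.90 with 16 and 17 reads. The downstream start printed above was covered by a faint region (chr9:71896090-71896180) with 8 and 12 reads.

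Zeb1, a repressor known from epithelial-mesenchymal transition and T cell development, spans 184142 bp (chr18:5591327-5775468). It had 5 peaks in replicate 1 and 8 in replicate 2, forming 5 shared regions. The region at chr18:5688432-5688817, 97.1 kb from the lower end, held 29 reads in replicate 1 (19.4 to 41.6) and 45 in replicate 2 (32.8 to 60.2). Its fold enrichment of 12.4 and 14.5 and its mean score percentile of 97.0 made it the best scoring of all 60 regions. The region nearest an end (chr18:5592675-5592831) began 1348 bp inside the lower end, 238 bp from an end of Gm10125, and had 7.19 and 4.60 with 19 and 16 reads. A further region at chr18:5603576-5603791 had 6.24 and 7.43 with 10 and 16 reads. Replicate 2 also had 3 peaks at 336, 553 and 806 bp inside the lower end, with 17, 18 and 17 reads, that had no partner in replicate 1. Scaled by the ratio of genome-wide backgrounds they would hold 8.99, 9.52 and 8.99 reads in replicate 1, whose weakest listed summit anywhere held 7. The reads that a peak needs rise with the local background, which was 1.78 in replicate 1 at the region nearest this end. The comparison with 7 therefore cannot tell whether the 3 peaks were detectable in replicate 1. The count of genes with an open end thus depends on the replicate for Zeb1.

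Zeb2, which promotes plasmacytoid and cDC2 fates at the expense of cDC1, spans 133931 bp (chr2:44983512-45117442). It had 1 peak in replicate 1 and 3 in replicate 2, and 1 shared region in a locus of 234 kb. That region (chr2:45112119-45112289) held 9 reads in replicate 1 (4.12 to 17.1) and 19 in replicate 2 (11.4 to 29.7), with a fold enrichment of 5.45 and 7.57. It lay inside Zeb2 and the antisense RNA gene Zeb2os, 5153 bp from the outermost Zeb2 start and 964 bp from the nearest given start, and ATAC-seq cannot assign it to either gene. The other 2 peaks of replicate 2 were at chr2:45049471-45049549 with 12 reads and at chr2:45110382-45110455 with 16 reads. Neither had a partner in replicate 1. The peak with 16 reads lay inside the promoter of a downstream Zeb2 start (chr2:45110228-45110527, minus strand). A count of at most 1 shared region was not rare for a long gene: of the 2426 coding genes of 100 kb or more, 676 (27.9%) had no more.

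Beyond 50 kb, a window chosen after seeing how few regions Zeb2 had, open chromatin lay on both sides of it. Between 50 and 250 kb there were 8 shared regions, 5 on the lower side and 3 on the upper. The one at chr2:44817841-44818108, 165 kb below the gene, reached 12.2 and 17.4 fold with 22 reads in replicate 1 (13.8 to 33.3) and 43 in replicate 2 (31.1 to 57.9). The one at chr2:44926871-44927455, 56.1 kb below, had 10.4 and 10.1 with 32 and 47 reads, and the one at chr2:45262029-45262302, 145 kb above, had 10.2 and 12.9 with 17 and 34 reads. These 3 had the highest scores of the 8. All 8 exceeded the fold enrichment of the region inside Zeb2 in replicate 1 and 5 of 8 did in replicate 2, where the other 3 had 6.59, 6.59 and 6.65 against 7.57. A count of 8 is also the median over coding genes of 100 kb or more (interquartile range 3 to 14), and proximity does not assign these regions to Zeb2.

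**Figure D4:**
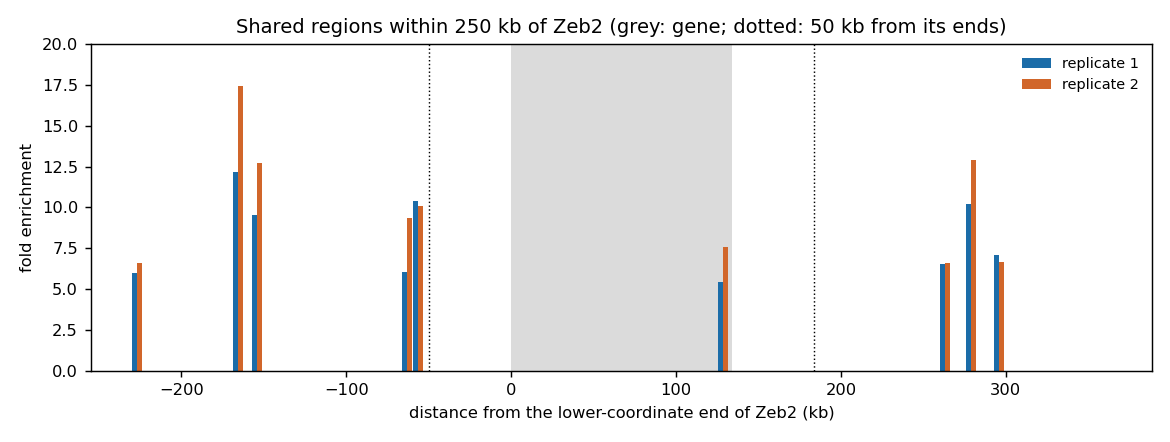
Fold enrichment (vertical axis) of shared regions in replicate 1 (left bar of each pair) and replicate 2 (right bar) against distance from the lower-coordinate end of Zeb2 (horizontal axis, kb), with the gene in grey and dotted lines 50 kb from its ends. The 1 region between the dotted lines is lower in replicate 1 than all 8 regions outside them, and lower in replicate 2 than 5 of the 8.

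Peaks seen in 1 replicate numbered 9 in replicate 1, with 8 to 22 reads, and 24 in replicate 2, with 9 to 34 reads. Of the 24, 11 would hold fewer reads than the weakest listed summit of replicate 1 after scaling for depth, and 13 would not. Of the 9, 0 would fall under the weakest summit of replicate 2. The weakest summit is taken over the whole list and ignores the local background. These counts therefore do not show which peaks were detectable in the other replicate. Tcf12 had 4 unmatched peaks in replicate 1 and 2 in replicate 2, Id3 had 1 and 6, Id1 had 1 and 5, and Id2 had 0 in both.

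The genes around the switch were counted by role at their ends, by the same rule and against the same 47.8% of coding genes. Of 20 tissue-restricted helix-loop-helix partners of E proteins, with the remaining Id gene, Id4, among them, 1 had a shared region at an end (5%). It was Twist2, with a fold enrichment of 7.66 and 6.63 on 14 and 15 reads. Of 13 cofactors through which E proteins and ZEB proteins activate or repress, 9 had one (69.2%). They were led by Cbfa2t2, a corepressor of the ETO family, with 12.4 and 12.0, and Ep300, an acetyltransferase, with 8.14 and 9.27. The cofactors without one were Cbfa2t3, Runx1t1, Ldb1 and Lmo2. Of 13 regulators upstream of Id genes, 12 had one (92.3%), all but Stat5b, whose nearest lay 1214 bp away. Stat3 had 11.4 and 11.4 and Foxo1 had 7.67 and 9.21. Nfil3, which is known to act ahead of Zeb2 and Id2 on the way to cDC1 and is named here after its values were seen, had 5.32 and 4.63 on 19 and 22 reads.

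**Figure D5:**
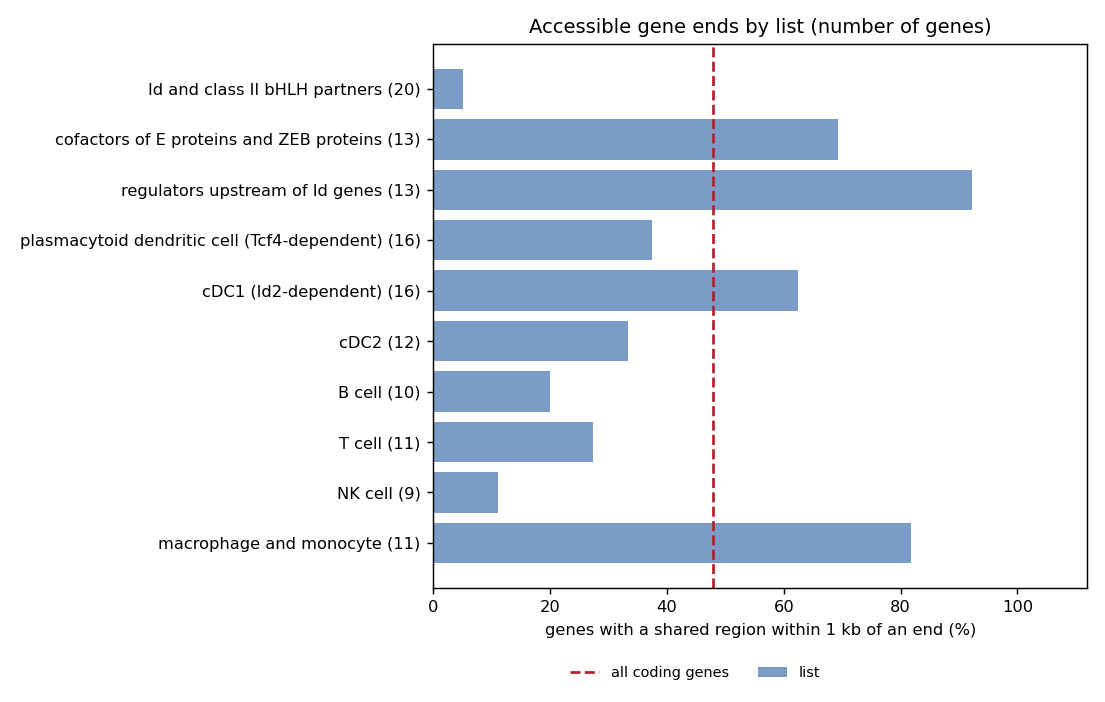
Percentage of genes with a shared region within 1 kb of an end (horizontal axis) for each list (rows, number of genes in brackets), with the 47.8% of all coding genes as a dashed line. The bars run from 5% for the E protein partners to 92.3% for the upstream regulators. Those of the plasmacytoid and cDC1 lists end at 37.5% and 62.5%, and that of macrophages and monocytes ends higher, at 81.8%.

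No list was tested against the background or against another list. The lists were chosen with earlier results of these data known, and listed genes can be neighbours. Where the better-scoring 50% of peaks were kept, 8 of the 13 upstream regulators, 6 of the 11 macrophage and monocyte genes, 9 of the 16 cDC1 genes and 4 of the 16 plasmacytoid genes had an open end, against 34.8% of coding genes. Of the 16 plasmacytoid genes the 6 with an open end were led by Bst2 and Tlr9. Bst2, the surface protein tetherin, had 7.75 and 8.98, and Tlr9, the receptor for unmethylated DNA, had 10.3 and 9.44. No sample is labelled plasmacytoid, so these data do not show that either gene is particular to those cells. The best scoring of the 10 open ends in the cDC1 list were at genes that other dendritic cells also express, Itgax, which encodes CD11c, with 7.86 and 7.19 on 70 and 83 reads, and Flt3, the receptor for a dendritic cell growth factor, with 12.4 and 13.4. Batf3, the factor that cDC1 cells require and named here after its values were seen, had none within 1 kb, and its nearest lay 1830 bp from an end with 22 shared regions in the gene and its flanks. The median number of shared regions in gene and flanks was 10.5 for the cDC1 list and 5.5 for the plasmacytoid list, against 5 for all coding genes. In the other lists it ran from 1 for the E protein partners to 9 for the upstream regulators, with 6 for macrophages and monocytes. These counts were not scaled for gene length. The highest ranked genes of the remaining lists were Relb (9.51 and 9.37) and Irf4 (11.4 and 11.0) for cDC2, and Maf (7.66 and 9.79) and C1qa (13.2 and 8.52) for macrophages and monocytes. They were Ebf1 (6.39 and 10.1) and Ms4a1 (4.96 and 5.50) for B cells, Cd5 (9.29 and 10.9) and Cd28 (7.16 and 6.59) for T cells, and Klre1 (4.77 and 6.15) for NK cells. The macrophage and monocyte genes without a shared end region were Adgre1 and Ly6c1.

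The coding gene most like each of the 8 was found from its peaks inside the gene and in the flanks and the fold enrichment of its best end peak, each in both replicates on a log2 scale. Tcf3 was closest to Cib1, with a distance of 0.0737, and Id1 to Mtrf1, with 0.0846. Id2 was closest to Tgfb1 at 0.215, with 11 peaks in replicate 1 and 10 in replicate 2 around Tgfb1 and an end fold enrichment of 5.08 and 4.12. Tcf12 was closest to Srgap3 (0.303), Id3 to H4c18 (0.352), Zeb1 to Ryk (0.407) and Tcf4 to Ppp3ca (0.470). Zeb2 had the same values as 11 other genes, of which Impg1 was nearest in length. The distances rest on 6 values per gene from 2 samples and say nothing of shared control.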

How the data were processed

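Open chromatin was measured by ATAC-seq in 2 samples of unstimulated dendritic cells. Per the submitters' processing notes, MACS2, HOMER 4.9.1, Picard 2.8.1, BWA 0.7.17 and Trimmomatic were used with build mm10, without their roles. How reads were shifted for the transposase and whether duplicates were removed are not given in the sources used here, and both can change weak peaks. The deposited lists have the MACS2 layout, 1 list per sample. The authors' fold enrichment divides the reads at a summit by local background, with 1 added to each. The authors' −log10 p and −log10 q compare both, and the score they deposited is −log10 q multiplied by 10. They were used to describe and rank peaks within a list.

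Summits of a peak were joined, and 13 summits of replicate 1 without a position, 0 of them at these genes, were used as part of their peak. Reads were worked back from fold enrichment and Poisson p, which returned −log10 p within 0.002 for 100% of summits in both lists, and the steps were tested on simulated data. Gene ends were those of RefSeq's GRCm38.p6 table, which gives no strand. Python 3.11.15, numpy 2.4.6, pandas 2.3.3, scipy 1.17.1 and matplotlib 3.10.9 were used. The genes, lists and rules were chosen with earlier results of these data known. At each gene the regions within 1 kb of an end and the 3 with the highest mean score percentile are named. For each list the 2 best genes are named, with those lacking an end region where they are 5 or fewer. Alternatives were other flanks, overlaps, thresholds, end windows and single replicates.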

Additional observations from a re-analysis of the deposited data

How the results depend on the processing

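Alternatives with other flanks, overlaps, thresholds, windows or a single replicate were run on the counts. The better-scoring 50% of each list left 24 shared regions, 3 genes with an open end (Id1, Id2 and Tcf3) and 37 list genes, against 60, 6 and 57 with all peaks. Flanks of 100 kb gave 98 regions and, in a window chosen after seeing the data, flanks of 250 kb gave 195, since longer windows hold more. With 1 replicate alone, the regions numbered 71 to 85, genes with an open end 6 to 7 (replicate 2 adds Zeb1) and list genes 59 to 64. A window of 500 bp dropped Tcf4 and one of 2 kb added Zeb1. Around given starts alone, 5 of 5 genes had a region, Zeb2 at a downstream start. E-boxes stood in 3 promoters when, also chosen after seeing the data, 1 start per gene was kept. The other alternatives kept these counts within 1.5 times and the shared percentages within their intervals. Of the counts per gene and per list under an alternative, 83 stayed within 1.5 times and 39 did not.

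No paired analysis was possible because the 1 group analysed has 2 samples and no contrast. Weak sites are limited by depth: the weakest listed summits held 7 and 9 reads, and intervals and read numbers cover counting error only. PCR copies are not independent molecules.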

Other observations

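Shared regions between 50 and 250 kb from each gene were counted in the window chosen after seeing the data. Tcf4 had 0, Zeb1 6, Zeb2 8, Tcf12 11, Id1 19, Id2 26, Id3 27 and Tcf3 38, against a median of 11 over coding genes (interquartile range 4 to 20). Of the 26 around Id2, 23 lay on the upper side, upstream of its start, and 3 on the lower side. Of the 27 around Id3, 18 lay on the lower side, upstream of its start, and 9 on the upper side. These counts are descriptions, many of the regions are nearer to other genes, and no contact with the 8 genes was measured.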
